A study of Mus musculus with 8 samples.

Results

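The interleukin 6 and oncostatin M axis was followed in inflamed mouse colon through 10 genes, taken by symbol from the 18806 genes of the count table. RNA sequencing gave each gene an estimated read count per mouse, with library totals from 16089081 to 17104290. The 10 genes encode 4 cytokines (Il6, Osm, Lif and Il11), 5 receptor chains (Il6ra, Osmr, Lifr, Il11ra1 and the shared chain Il6st) and the feedback inhibitor Socs3. All 10 passed the filter on low counts and were among the 14578 genes tested. Colon RNA came from 8 mice, each with colitis from dextran sulfate sodium (DSS), a polysaccharide that damages the colon lining. DSS alone was given to 4 mice (the DSS group), and the other 4 had DSS and the gut bacterium Alistipes putredinis (the DSS+AP group). The series design states that the mice were drawn at random from each group; strain, age, sex, dose and timing were not stated in the sources. All 8 mice carried colitis, so no level here can be set against uninflamed colon.

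Cytokines of this family share one signalling chain, gp130, the product of Il6st. Interleukin 6 and interleukin 11 each bind their own alpha receptor, which then recruits a pair of gp130 chains, whereas leukemia inhibitory factor joins gp130 to the LIF receptor and oncostatin M joins it to the oncostatin M receptor. Bound receptors activate Janus kinases and the transcription factor STAT3, and STAT3 switches on Socs3, whose protein binds gp130 and damps the signal. In inflamed gut, interleukin 6 is known as a product of macrophages and stromal cells, oncostatin M as a product of neutrophils and other myeloid cells, and the oncostatin M receptor and interleukin 11 as products of fibroblasts and other stromal cells.

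The genes lie on several chromosomes, with 2 close pairs (RefSeq gene table, GRCm38.p6). Osm (chr11:4236785-4241026) and Lif (chr11:4257568-4272514) are neighbours with 16.5 kb between them and no listed gene in the gap. Osmr (chr15:6813568-6874968) and Lifr (chr15:7090610-7197489) are separated by 216 kb that hold 3 predicted genes. Il6 is at chr5:30013114-30019975, Il11 at chr7:4772373-4782907, Il6ra at chr3:89869324-89913196, Il11ra1 at chr4:41760443-41769473, Il6st at chr13:112464070-112506860 and Socs3 at chr11:117966079-117970336. No member shared exon bases with another gene on its own strand in GENCODE M21, and the largest share with a gene on the other strand was 2.80%, for Il6ra.

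Promoter sequence was read for the 9 members in RefSeq's promoter table (GRCm38.p6), as the 250 bases before each of 12 annotated starts. Both strands were searched for the STAT motif TTCNNNGAA, the AP-1 motif TGANTCA, the C/EBP motif TTGCNNAA and the NF-kappa B consensus, and the gene's strand alone for TATAAA. Among all 32851 promoter windows of that length in the table, 7.02% held the STAT motif, 6.75% the AP-1 motif, 9.56% the C/EBP motif, 7.25% the NF-kappa B consensus and 7.59% TATAAA. A match was found in 4 of the 12 windows, and these 4 are shown. They belong to Il6, Lif, Il11 and Socs3. Members whose windows held no match were lower in DSS+AP too. The share of all windows with any of these motifs was not computed. Capitals mark the matches, and each run reads 5′ to 3′ on the gene's strand and stops before the first exon base in GENCODE M21:
Il6, chr5:30012864-30013113 (+ strand): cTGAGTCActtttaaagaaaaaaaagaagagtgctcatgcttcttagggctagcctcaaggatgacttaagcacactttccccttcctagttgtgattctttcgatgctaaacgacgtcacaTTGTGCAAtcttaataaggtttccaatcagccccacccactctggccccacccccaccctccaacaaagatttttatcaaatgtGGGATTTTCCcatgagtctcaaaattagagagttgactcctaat
Lif, chr11:4257318-4257556 (+ strand): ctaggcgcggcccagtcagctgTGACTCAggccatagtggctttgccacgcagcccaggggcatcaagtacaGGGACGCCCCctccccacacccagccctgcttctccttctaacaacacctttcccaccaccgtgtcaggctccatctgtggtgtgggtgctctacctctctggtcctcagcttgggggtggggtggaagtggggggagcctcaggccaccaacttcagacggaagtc
Il11, chr7:4778142-4778391 (- strand): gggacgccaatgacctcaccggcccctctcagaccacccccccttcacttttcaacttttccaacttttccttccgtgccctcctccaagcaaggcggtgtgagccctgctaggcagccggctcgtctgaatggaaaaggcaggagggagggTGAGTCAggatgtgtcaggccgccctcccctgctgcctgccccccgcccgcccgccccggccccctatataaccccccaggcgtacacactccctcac
Socs3, chr11:117969452-117969616 (- strand): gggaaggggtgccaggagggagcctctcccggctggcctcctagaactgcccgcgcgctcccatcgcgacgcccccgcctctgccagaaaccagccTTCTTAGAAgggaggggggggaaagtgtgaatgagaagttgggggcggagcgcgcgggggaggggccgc
The Il6 window held, from its far end toward the start, an AP-1 match, a C/EBP match on the opposite strand and an NF-kappa B match 44 to 35 bases before the start. The Lif window held an AP-1 and an NF-kappa B match, and the Il11 window an AP-1 match 98 to 92 bases before its start. The STAT match of Socs3 was the 1 such match in the 12 windows and lay 154 to 146 bases before the start in RefSeq's promoter table. That start lies inside the Socs3 gene span given above. The bases just after it were not found in a GENCODE M21 transcript of Socs3, so the distance to the true start is uncertain. No motif overlapped another. These are matches of letters, and binding was not measured.

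All 10 genes of the axis were lower in DSS+AP colon, and none was higher. By edgeR's quasi-likelihood test over all genes, 10 of 10 passed an adjusted p of 0.05 as lower, where 20.4% of all tested genes did. As higher, 0 of the 10 passed with edgeR, DESeq2 or limma-voom (also 0 at an unadjusted p under 0.05 with edgeR), against 8.84% of all tested genes. In 9 of the 10 every DSS+AP library lay below every DSS library, as in 19.6% of tested genes. The members' median log2 fold change (DSS+AP over DSS) was -1.72, from -2.72 to -0.75, beside a median of 0.02 over all tested genes. The members were proposed with earlier results of these data in view, so this count is a description of the axis. RNA of whole colon cannot separate fewer cells of a type from less RNA per cell.

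**Figure D1:**
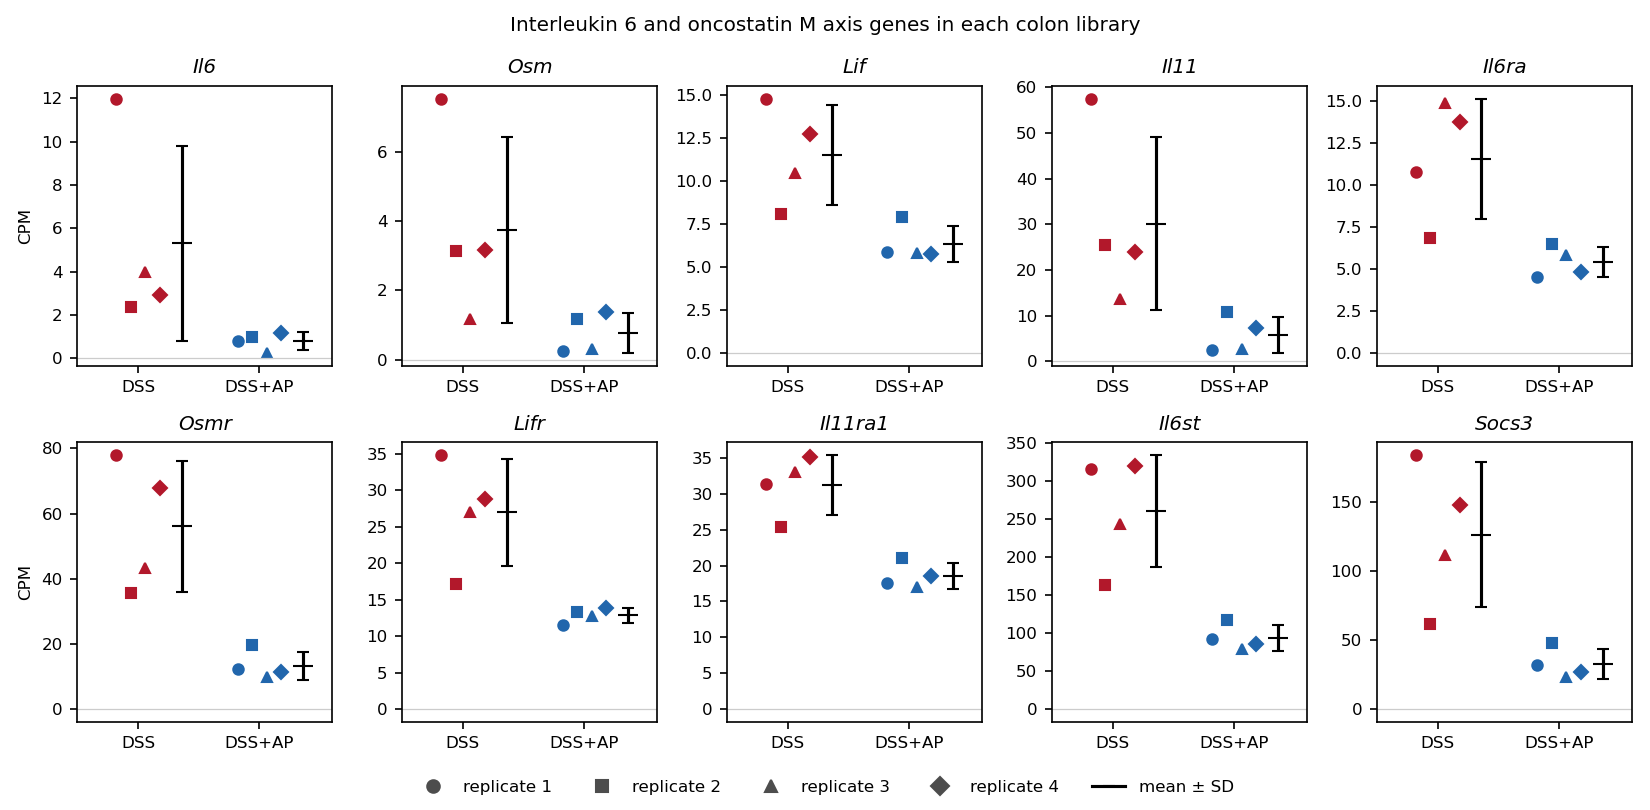
CPM (read counts scaled to library size) of the 10 genes in each library, with 1 panel per gene and linear axes that include 0; symbols stand for replicates, and the bar at the right of each group is the mean ± SD of 4 mice. Osm is the gene whose groups overlap, and the first DSS library is the highest of all 8 for 7 of the genes.

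Il6, the gene of interleukin 6, had 215, 40, 64 and 48 estimated counts in DSS 1 to DSS 4. In DSS+AP 1 to DSS+AP 4 it had 13, 17, 4 and 19. As CPM (the usual per-library scaling of counts to a common total), these were 12.0, 2.35, 3.97 and 2.92 in DSS and 0.780, 0.992, 0.248 and 1.18 in DSS+AP. Each DSS+AP library was below each DSS library, and DSS 1 stood far above the other DSS libraries. The mean fell from 5.31 ± 4.50 to 0.799 ± 0.402 CPM (SD, n = 4 each). On the log2 scale this was a fold change of -2.72 with an SE of 0.62 (adjusted p = 0.0129, edgeR). Without DSS 1 it was -1.91 (edgeR adjusted p = 0.0180).

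Osm, the gene of oncostatin M, had 135, 53, 19 and 52 counts in DSS and 4, 20, 5 and 22 in DSS+AP. In CPM these were 7.52, 3.12, 1.18 and 3.17 in DSS and 0.240, 1.17, 0.310 and 1.36 in DSS+AP. DSS+AP 4 was above DSS 3, so the groups overlapped, and DSS+AP 1 and DSS+AP 3 were close to the floor of 3 counts (0.167 to 0.186 CPM, counting error only). The mean went from 3.75 ± 2.68 to 0.770 ± 0.578 CPM, and the log2 fold change was -2.28 ± 0.66 (edgeR adjusted p = 0.0315). That call for Osm did not survive the removal of DSS 1, where the estimate was -1.66 and the edgeR adjusted p 0.0723. Removing DSS 4 gave 0.0594, removing DSS+AP 1 gave 0.0810 and removing DSS+AP 3 gave 0.0851.

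Il11, the gene of interleukin 11, was the most abundant of the cytokines per exon length. It stood at 57.5, 25.5, 13.6 and 23.99 CPM in DSS and at 2.40, 10.7, 2.79 and 7.19 CPM in DSS+AP. The groups did not overlap, and the nearest libraries were DSS 3 and DSS+AP 2. The Il11 mean went from 30.2 ± 19.0 to 5.78 ± 3.96 CPM, a log2 fold change of -2.38 ± 0.57 (edgeR adjusted p = 0.0154) that was -1.83 without DSS 1.

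Lif, which encodes leukemia inhibitory factor, had the smallest fold change of the 4 cytokines. Its CPM were 14.8, 8.06, 10.5 and 12.7 in DSS and 5.88, 7.88, 5.83 and 5.76 in DSS+AP. The groups did not overlap, though DSS+AP 2 came close to DSS 2. The mean fell from 11.5 ± 2.89 to 6.34 ± 1.03 CPM, with a log2 fold change of -0.86 ± 0.20 (edgeR adjusted p = 0.0148). Without DSS+AP 1 the edgeR adjusted p for Lif was 0.0570.

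Among the receptor chains, Osmr had the largest fold change. This gene of the oncostatin M receptor had 78.0, 35.5, 43.3 and 67.7 CPM in DSS and 12.2, 19.7, 9.73 and 11.3 CPM in DSS+AP. The lowest DSS library, DSS 2, was well above the highest DSS+AP library, DSS+AP 2. The mean fell from 56.1 ± 20.02 to 13.2 ± 4.44 CPM. The log2 fold change was -2.08 ± 0.30 (edgeR adjusted p = 0.00350) and ranged from -2.33 to -1.85 when each library was left out. It had the smallest p of the 10 genes and ranked 296 among all tested genes.

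Il6st, the shared gp130 chain, was the most abundant receptor gene in both groups per exon length. It had 316, 164, 244 and 320 CPM in DSS and 92.9, 118, 79.0 and 85.5 CPM in DSS+AP, with no overlap. Its mean dropped from 261 ± 73.7 to 93.7 ± 16.9 CPM (log2 fold change -1.48 ± 0.22; edgeR adjusted p = 0.00365).

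Lifr, Il6ra and Il11ra1 also fell, with log2 fold changes nearer 0. Lifr, the LIF receptor, had 34.8, 17.2, 27.1 and 28.9 CPM in DSS and 11.5, 13.3, 12.8 and 13.9 CPM in DSS+AP (-1.07 ± 0.19; edgeR adjusted p = 0.00596). Its DSS+AP libraries were tightly grouped, with a coefficient of variation of 7.76% against 27.1% in DSS. Il6ra, the alpha receptor of interleukin 6, had 10.8, 6.83, 14.9 and 13.8 CPM in DSS and 4.50, 6.48, 5.83 and 4.83 CPM in DSS+AP (-1.09 ± 0.25; edgeR adjusted p = 0.0122). It was the only member to peak in DSS 3, and its nearest libraries were DSS 2 and DSS+AP 2.

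Il11ra1, the alpha receptor of interleukin 11, had the fold change nearest 0 of the 10 genes and the smallest coefficient of variation in DSS (13.5%). It had 31.4, 25.3, 33.0 and 35.1 CPM in DSS and 17.6, 21.1, 17.05 and 18.5 CPM in DSS+AP (-0.75 ± 0.12; edgeR adjusted p = 0.00432). Its estimated counts were mostly not whole numbers (562.73 in DSS 1, for example), so part of its reads was divided between it and near-identical sequence elsewhere, which leaves the level uncertain. Il11ra2, listed beside it in the table, had at most 5.16 counts in any library.

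Socs3, the feedback inhibitor induced by STAT3, had 184, 61.3, 111 and 148 CPM in DSS. In DSS+AP it had 31.7, 47.9, 23.1 and 27.1 CPM. The groups did not overlap, and DSS 2 and DSS+AP 2 were again the nearest libraries. Mean Socs3 went from 126 ± 52.3 to 32.5 ± 10.9 CPM (log2 fold change -1.96 ± 0.34; edgeR adjusted p = 0.00528).

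**Figure D2:**
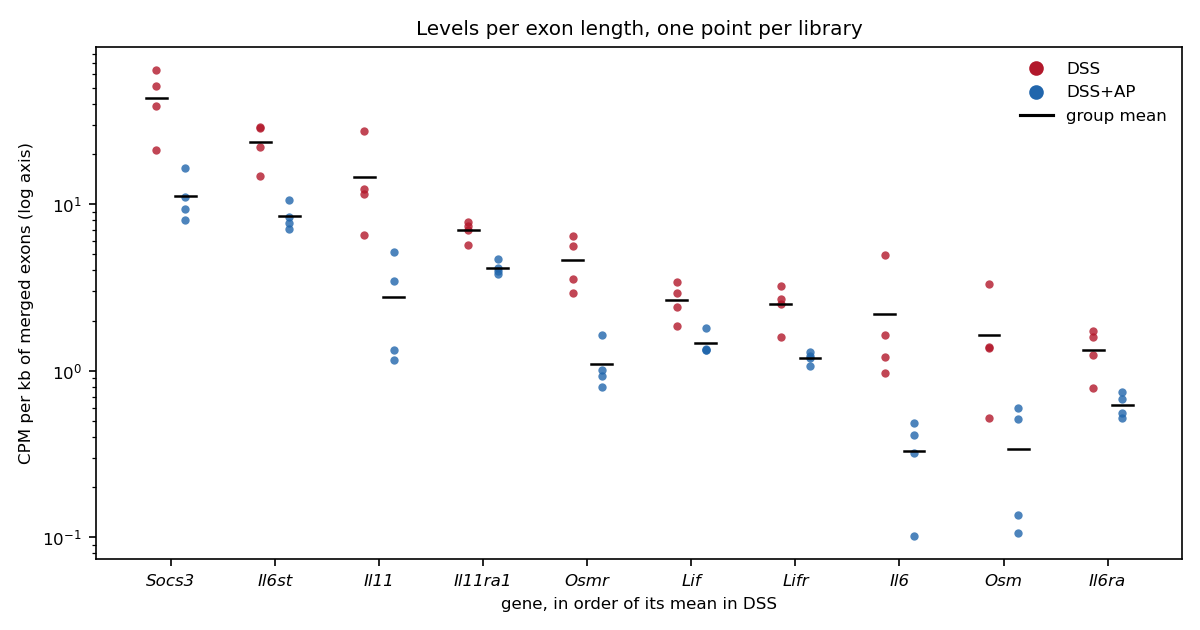
CPM per kb of merged exons (log axis) for the 10 genes, ordered by their mean in DSS; each point is 1 library and each bar a group mean. Socs3 and Il6st are the highest pair in both groups, and Il6, Osm and Il6ra the lowest genes.

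Levels were compared between genes as CPM per kb of merged GENCODE exons. This length joins the exons of all transcripts of a gene and can differ from the length counted. The order of genes is therefore approximate. In DSS the order of the means was Socs3 at 43.6 ± 18.1, Il6st at 23.5 ± 6.64, Il11 at 14.5 ± 9.12, Il11ra1 at 6.98 ± 0.942 and Osmr at 4.63 ± 1.65. Below them came Lif at 2.65 ± 0.664, Lifr at 2.504 ± 0.680, Il6 at 2.19 ± 1.85, Osm at 1.65 ± 1.18 and Il6ra at 1.34 ± 0.416 (SD, n = 4 each). Every neighbouring pair in that order overlapped between libraries. In DSS+AP the order was Socs3 (11.2 ± 3.76), Il6st (8.44 ± 1.52), Il11ra1 (4.15 ± 0.397), Il11 (2.78 ± 1.90), Lif (1.46 ± 0.237), Lifr (1.19 ± 0.0927), Osmr (1.09 ± 0.367), Il6ra (0.626 ± 0.105), Osm (0.339 ± 0.254) and Il6 (0.329 ± 0.165). There the neighbours Il6st and Il11ra1, Lif and Lifr, and Osmr and Il6ra did not overlap, and the other pairs did. Osmr thus had rank 5 of the 10 in DSS and rank 7 in DSS+AP, and Il6ra ranks 10 and 8.

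The ligand was also set against its own receptor within each library, as a difference of log2 CPM, by a comparison added after the data were seen. For Il6 and Il6ra the mean log2 ratio went from -1.35 ± 1.04 to -2.72 ± 0.904, a difference of -1.37 (exact two-sided permutation p = 0.0571, adjusted over the 4 pairs 0.114). For Il11 and Il11ra1 the difference was -1.69 (exact permutation p = 0.0571, adjusted 0.114). Osm and Osmr differed by -0.07 (exact permutation p = 0.886) and Lif and Lifr by 0.19 (exact permutation p = 0.200). The smallest p that 4 mice against 4 allow is 0.0286, and 0 of the 4 pairs passed, also without adjustment.

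Most of the genes peaked in the same library within each group, though their full order of libraries differed. How often all tested genes peaked in those libraries was not counted. DSS 1 was the highest of all 8 libraries for 7 members (Il6, Osm, Lif, Il11, Osmr, Lifr and Socs3), DSS 4 for Il6st and Il11ra1, and DSS 3 for Il6ra. Within the DSS group DSS 2 was lowest for 8 members. Osm and Il11 were lowest in DSS 3 instead. Within the DSS+AP group, DSS+AP 2 was highest for 7 members, and DSS+AP 4 for Il6, Osm and Lifr. The lowest library of all was DSS+AP 3 for 5 members, DSS+AP 1 for 4 and DSS+AP 4 for Lif.

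**Figure D3:**
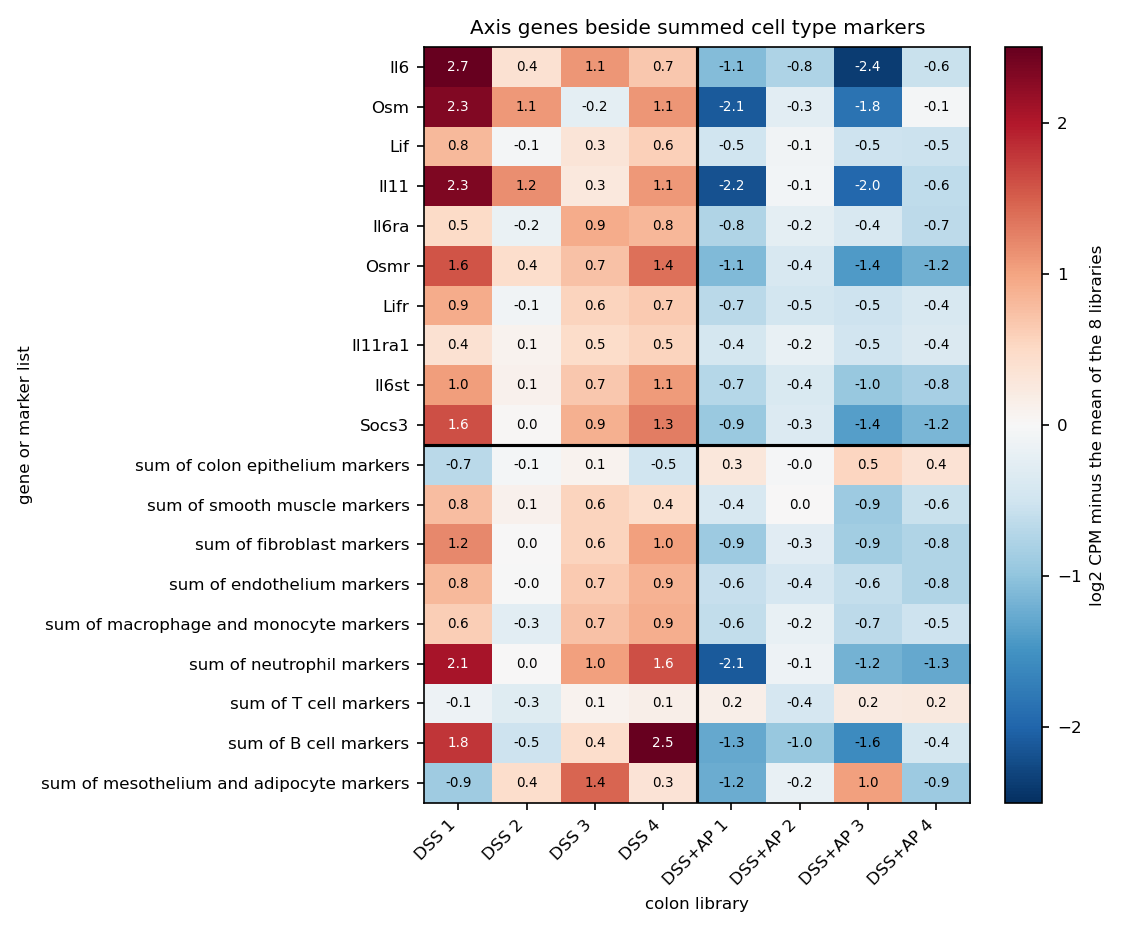
Difference of log2 CPM from the mean of the 8 libraries for each gene of the axis (above the line) and for the summed CPM of each cell type marker list (below it). Red is above and blue below that mean; DSS 1 and DSS 4 are red for the axis genes and for the neutrophil, fibroblast and endothelium markers alike.

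Markers of stromal and myeloid cells moved in the same libraries. The counts below stand beside 20.4% lower and 8.84% higher among all tested genes. Of 10 fibroblast markers 10 were lower and 0 higher in DSS+AP, and their summed level was 2600.0 to 5969 CPM in the DSS group against 1387 to 2137 CPM in DSS+AP. Of 10 neutrophil markers 10 were lower, with sums of 115 to 484 CPM against 26.8 to 106 CPM. Smooth muscle markers were lower in 9 of 10 (2930 to 4641 against 1462 to 2748 CPM) and endothelial markers in 8 of 8 (226 to 415 against 135 to 169 CPM). Macrophage and monocyte markers were lower in 9 of 10, with overlapping sums of 380.0 to 860 and 292 to 404 CPM, and B cell markers in 8 of 8 (16.3 to 133 against 7.83 to 17.2 CPM). Of 7 measured T cell markers 1 was higher and 1 lower, near the shares over all tested genes (32.7 to 44.6 against 30.4 to 48.2 CPM). Markers of colon epithelium, which check the labelled tissue, were all detected in every library; 4 of 12 were higher and 1 lower (18952 to 32240 against 29882 to 43950 CPM). Of 7 tested mesothelium and adipocyte markers 3 were lower (49.9 to 252 against 39.0 to 187 CPM), and Upk3b of that list was the 1 marker with a library at 0. The part of these cell types in the fall of the axis was not tested.

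With the mean log2 CPM of the smooth muscle markers as a covariate, edgeR called 0 of the 10 members and 0 of all 14578 genes (at an unadjusted p under 0.05, 2 members and 1064 genes lower and 987 genes higher). In that fit all 10 members had log2 fold changes nearer 0 than without the covariate, from -0.98 ± 0.37 for Osmr to -0.21 ± 0.32 for Lif. Il6 stood at -0.26 ± 0.93 in place of -2.72, Socs3 at -0.60 ± 0.41 in place of -1.96 and Osm at -0.96 ± 1.19 in place of -2.28, and Il6, Osm and Lif lay within 1 SE of 0. The muscle score itself did not overlap between groups, with 7.73 to 8.30 in DSS against 6.69 to 7.61 in DSS+AP, so it and the bacterium cannot be told apart in these libraries.

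Each member was then related to the summed markers of 3 cell types in the same library, again added after the data were seen. Relative to fibroblast markers, Osmr was lower in DSS+AP in every library (log2 ratio -6.45 to -6.19 without and -7.16 to -6.75 with the bacterium, difference -0.65), and Socs3 was too (difference -0.50). Il6st kept nearly its ratio to them, at -4.06 ± 0.125 in DSS against -4.10 ± 0.136 with the bacterium (two-sided exact permutation p = 0.629). Lif and Il11ra1 were higher relative to fibroblast markers, by 0.57 and 0.66, with no overlap. Relative to smooth muscle markers, Il6, Osmr, Il6st and Socs3 were lower without overlap, by -1.47, -1.12, -0.51 and -0.97. Relative to neutrophil markers the differences were 0.23 for Osm, -0.06 for Il6 and -0.08 for Il11, with overlapping libraries, and Lif was higher by 1.52. The 9 ratios whose groups separated reached the smallest possible exact permutation p of 0.0286, which is 0.0952 after adjustment over the 30 ratios, so 0 of 30 passed.

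**Figure D4:**
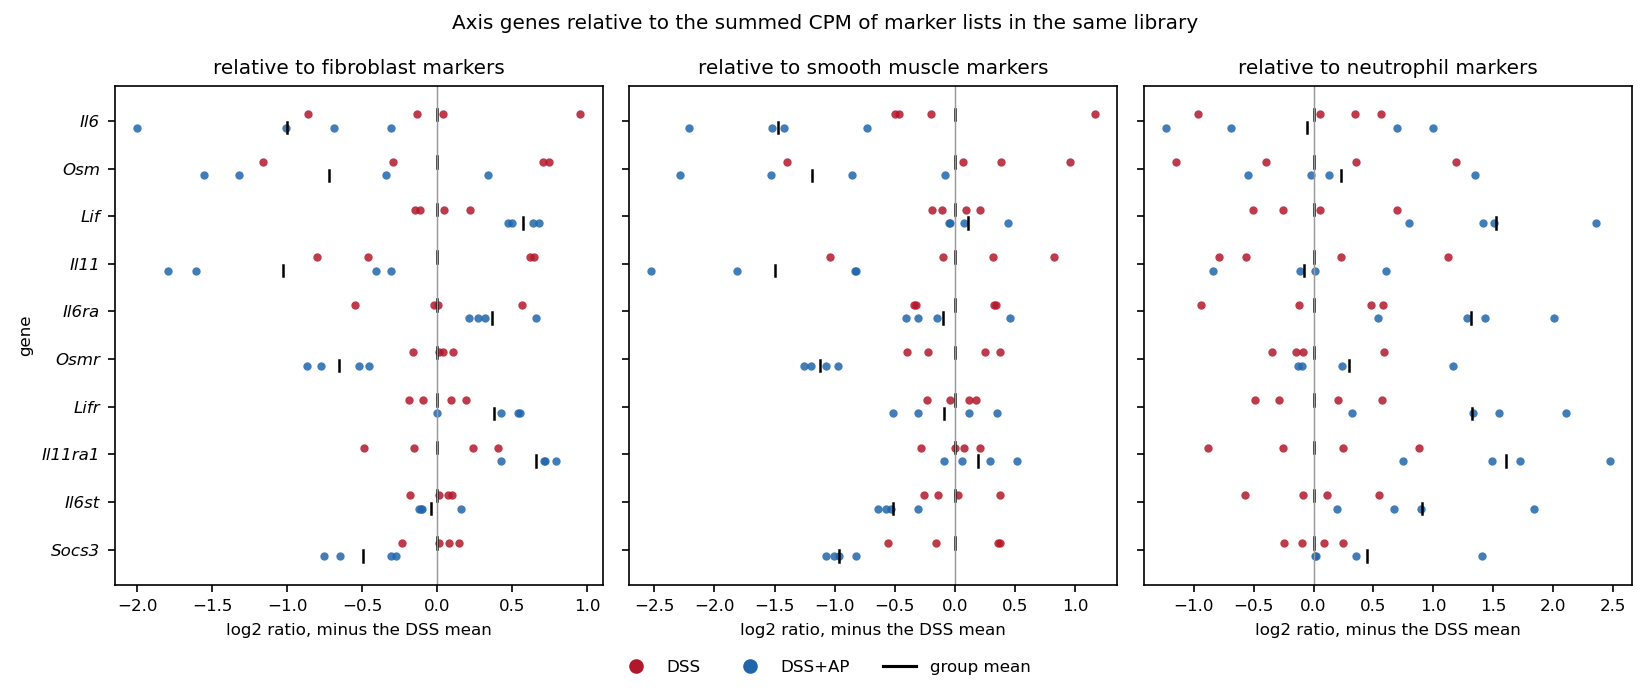
Log2 ratio of each gene to the summed CPM of fibroblast, smooth muscle or neutrophil markers in the same library, shown as the difference from the DSS mean; points are libraries and bars group means. Osmr and Socs3 lie left of all DSS libraries in the first 2 panels, and Osm, Il6 and Il11 overlap in the neutrophil panel.

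The rest of the pathway was described through 5 lists, chosen with earlier results of these data known. Over their 58 tested genes 28 were lower and 0 higher by edgeR (0 at an unadjusted p under 0.05 as well), where 20.4% of all tested genes were lower and 8.84% higher, and the median log2 fold change was -0.42. The number of lower genes was 18 without DSS+AP 1, and without DSS 1 the apoptosis inhibitor gene Birc5, named after its value was seen, passed as higher (0.94; edgeR adjusted p = 0.0395).

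Of 7 tested genes for other gp130 cytokines and their receptors, 2 were lower and 0 higher (median -0.41), a share of lower genes near the 20.4% of all tested genes. Clcf1, which encodes cardiotrophin-like cytokine factor 1, was at 5.52, 2.59, 2.97 and 4.57 CPM in DSS and 1.62, 1.05, 1.36 and 1.67 CPM in DSS+AP (-1.45 ± 0.29; edgeR adjusted p = 0.00817). It shares 8.17% of its exon bases with another gene on its strand. Cntfr, the alpha receptor of ciliary neurotrophic factor, changed by -1.54 ± 0.32 (edgeR adjusted p = 0.00898), with no overlap between groups. Il27, Il31ra and Il11ra2 were too low to be tested.

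Kinases, STAT factors, adaptors and shedding proteases formed a list in which 5 of 12 were lower and 0 higher, with a median of -0.15. Among all tested genes 20.4% were lower and 8.84% higher. Stat3, the main transcription factor downstream of gp130, had 318, 229, 294 and 319 CPM in DSS and 177, 210.1, 165 and 171 CPM in DSS+AP. The groups did not overlap, and the fall was -0.68 ± 0.12 (edgeR adjusted p = 0.00598). Stat5a (-0.48 ± 0.13), the kinase gene Jak1 (-0.28 ± 0.09) and Adam17 (-0.28 ± 0.09), whose protease sheds the interleukin 6 receptor, passed with edgeR adjusted p of 0.0234, 0.0402 and 0.0389. These calls depended on single libraries and on settings. Stat5a kept its call only when the library removed was DSS 2, DSS 3 or DSS+AP 2, Adam17 only when it was DSS 3 or DSS+AP 2, and Jak1 only when it was DSS 2. With all 8 libraries, Adam17 and Jak1 also missed the threshold under RLE scaling (edgeR adjusted p = 0.0543 and 0.0554) and with no filter on low counts (0.127 and 0.103). Of 8 other inhibitors of the pathway 1 was lower and 0 higher (median -0.16), below the 20.4% over all tested genes. It was Ptpn1, the gene of a phosphatase that acts on Janus kinases (-0.62 ± 0.11; edgeR adjusted p = 0.00614); Ptpn2, a related phosphatase gene, was at -0.29 ± 0.11 and did not pass (0.0792).

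Of 22 genes linked to STAT3 in inflamed tissue, 13 were lower and 0 higher, with a median of -0.62. The shares over all tested genes were 20.4% lower and 8.84% higher. Cebpd, a transcription factor gene of the acute-phase response, had 104, 46.0, 84.9 and 92.5 CPM in DSS and 24.5, 21.3, 12.8 and 19.2 CPM in DSS+AP (-2.07 ± 0.27; edgeR adjusted p = 0.00324). Its relative Cebpb fell by 1.32 ± 0.22 on the log2 scale. Both share exon bases with a gene on the other strand (15.0% and 20.7%), and no source states whether counting used the strand, so their counts are uncertain. Hp, the gene of the haemoglobin-binding protein haptoglobin, fell by 2.58 ± 0.44 and the serum amyloid gene Saa3 by 2.24 ± 0.41 (edgeR adjusted p = 0.00494 and 0.00626). The epithelial lectin genes Reg3b and Reg3g, named after their values were seen, did not pass. Reg3b averaged 950.1 ± 489 CPM in DSS against 942 ± 458 CPM in DSS+AP, and Reg3g 257 ± 132 against 273 ± 140.4 CPM.

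Of 9 tested stromal genes known to respond to oncostatin M, 7 were lower and 0 higher, with a median of -1.64. Over all tested genes 20.4% were lower and 8.84% higher. Timp1, the gene of a metalloproteinase inhibitor, had 95.3, 17.95, 17.9 and 27.8 CPM in DSS and 3.84, 7.24, 3.04 and 3.65 CPM in DSS+AP (-3.16 ± 0.62; edgeR adjusted p = 0.00785). DSS 1 was far above the others, and without it the log2 fold change was -2.22. Serpina3n, a protease inhibitor gene, fell by 2.46 ± 0.36, the monocyte chemokine gene Ccl2 by 2.40 ± 0.47 and the adhesion molecule gene Vcam1 by 1.64 ± 0.24, each with no overlap (edgeR adjusted p = 0.00350 to 0.00772). Cxcl9 and Cxcl10, chemokine genes that interferon gamma induces, were named after their values were seen and did not pass. Cxcl9 averaged 9.75 ± 3.23 CPM in DSS against 9.21 ± 9.28 CPM in DSS+AP, and Cxcl10 11.6 ± 4.75 against 5.89 ± 4.87 CPM. Pdpn of this list is also a fibroblast marker.

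**Figure D5:**
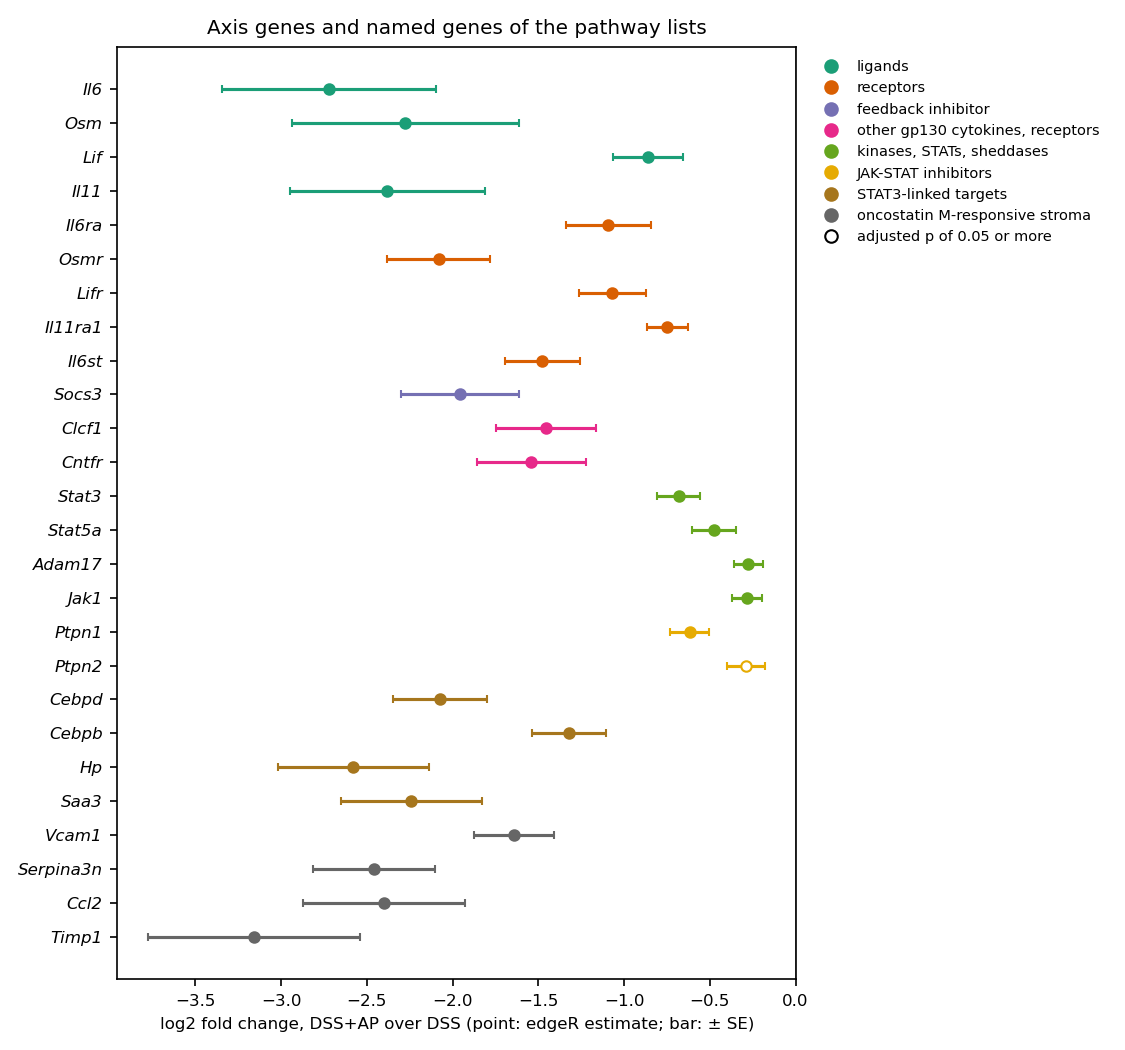
Log2 fold changes (DSS+AP over DSS) of the 10 axis genes and of the named genes of the 5 pathway lists; points are edgeR estimates, bars ± SE from 4 mice per group, filled where the adjusted p is under 0.05. The cytokines Il6, Osm and Il11 lie between -2.72 and -2.28, the named kinase, STAT and protease genes between -0.68 and -0.28, and Ptpn2 is the open point.

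For 4 members the 3 tested genes with the most similar profile were found, as the smallest Euclidean distance between log2 CPM centred and scaled over the 8 libraries. These libraries and their depth are common to all genes, so the distances are descriptive. Nearest to Il6 were the neuropeptide gene Gal (0.481), the vasopressin receptor gene Avpr1a (0.613) and the neutrophil-attracting chemokine gene Cxcl3 (0.632). Nearest to Osm were S100a9 (0.581), a calcium-binding protein gene of neutrophils and 1 of the neutrophil markers above, the histidine decarboxylase gene Hdc (0.584) and Il1f9 (0.590), which encodes interleukin 36 gamma. Nearest to Osmr were the potassium channel gene Kcnj12 (0.211), Tnfaip2 (0.221) and the adenylate kinase gene Ak1 (0.229). Nearest to Socs3 were Map7d1 (0.224), Emp3 (0.228) and the membrane-bound metalloproteinase gene Mmp14 (0.241). These 12 were picked for profiles close to those of 4 members that were lower in DSS+AP. That they were lower too follows from the choice and is no separate result. Their log2 fold changes with all 8 libraries ran from -3.59 ± 0.61 for Avpr1a to -0.85 ± 0.18 for Mmp14. Their edgeR adjusted p ran from 0.00406 to 0.0410. Avpr1a had 5, 7, 1 and 7 counts in DSS+AP 1 to DSS+AP 4, so its value rests on counts near or below the floor of 3. Hdc and Il1f9 overlapped between groups, as Osm did. All 3 neighbours of Osm lost their calls when any single library but DSS 2, DSS 3 or DSS+AP 2 was removed, and Il1f9 also lost it without DSS+AP 2. With DSS 1 removed, the log2 fold change was -1.84 for S100a9 in place of -2.88, -1.79 for Hdc in place of -2.501 and -1.24 for Il1f9 in place of -1.92 (edgeR adjusted p = 0.0981, 0.0951 and 0.0861). S100a9 and Hdc also missed the threshold with no filter on low counts, and Il1f9 with limma-voom. Of the neighbours of Il6, Avpr1a stood at -2.97 and Cxcl3 at -2.21 with DSS 1 removed, against -3.59 and -3.28 with it, and both were still called. With DSS+AP 2 removed, Cxcl3 was at -3.96 and Hdc at -3.19.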

How the data were processed

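Messenger RNA libraries of colon from 8 mice were sequenced. Per the submitters' processing notes, the build was GRCm38.p6 and the tools were RSEM 1.2.8, HISAT2 2.1.0 and Bowtie2 2.2.5; their roles are not recorded. The authors deposited estimated counts for each gene with no depth scaling, of which 10.7% to 11.5% per library were not whole. Totals ran from 16089081 to 17104290 with no detected difference between groups (exact two-sided permutation p = 0.829, n = 4 each).

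Counts were rounded, filtered with filterByExpr, scaled by TMM and fitted with edgeR 4.0.16 (R 4.3.3): robust quasi-likelihood F test over all 14578 genes, no covariates, Benjamini-Hochberg adjustment, threshold 0.05. An SE is the size of the log2 fold change over the square root of F. CPM were taken over TMM-scaled totals of tested genes; on the log2 scale a prior count of 2 was added. The floor was 3 counts. Alternatives numbered 17: 2 scalings, 2 filters, the fit without robust estimation, a replicate block, a smooth muscle covariate, DESeq2 1.42.0, limma-voom (limma 3.58.1) and each library left out. The steps were tested on simulated data. Each library came from a separate mouse; no pair within a group was a copy (chi-square per gene at least 9.96).

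Members and lists were chosen with earlier results of these data known. Named by rule are all members and the 3 nearest profiles of Il6, Osm, Osmr and Socs3, without predicted genes and RIKEN clones. So are up to 4 genes per pathway list past the threshold by smallest p (the most abundant where fewer than 2 passed). Other genes mentioned, among them Birc5, Reg3b, Reg3g, Cxcl9 and Cxcl10, fall outside this rule.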

Additional observations from a re-analysis of the deposited data

Results flagged for a closer look

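In 76 groups of 4 libraries (38 named genes in both groups), 5 held a library set far from the other 3. This was judged by Dixon's test of its gap over the group's range. Its chance rate of about 1 in 20 holds for independent groups of normal values. Normality of the CPM was not checked, and Cxcl3 was picked for a profile like that of Il6. The 5 therefore cannot be set against that rate. DSS 1 was far above the other DSS libraries for Il6 (12.0 CPM, next 3.97), Timp1 (95.3 CPM, next 27.8) and Cxcl3 (17.2 CPM, next 3.72). DSS+AP 2 was far above its group for Lif (7.88 CPM, next 5.88) and Tnfaip2 (23.9 CPM, next 14.2). Without DSS 1, Il6, Timp1 and Cxcl3 were still called lower by edgeR.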

How the results depend on the processing

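No named gene changed direction under the 17 alternatives. Without the covariate, 152 of the members' 160 values kept their side of the threshold, and 8 lost the call: 5 of Osm, 2 of Lif and 1 of Il6ra. Of 447 such values for the other 28 named genes 49 lost it, in Stat5a, Adam17, Jak1, S100a9, Hdc, Il1f9, Cxcl3 and Mmp14, the last pair with the replicate block. Leaving out 1 library gave 8 to 10 lower and 0 higher members, 18 to 29 lower and 0 to 1 higher pathway genes, and 1985 to 3086 lower and 525 to 2101 higher genes in all (2101 with DSS 2 removed, 847 for DSS 3, 525 for DSS 4, 565 for DSS+AP 3 and 762 for DSS+AP 4). With the muscle covariate the lower members, lower pathway genes and genes called either way numbered 0 each. Genes called higher numbered 1950 with no filter, 2410 with limma-voom and 2190 with DESeq2, against 1288 in the edgeR fit reported. The labels do not state whether replicate numbers pair the mice, and correlations between libraries cannot decide it. Same-numbered libraries' deviations correlated at -0.14, -0.45, 0.36 and -0.19, and not every library was closest to its own number. Stat5a, Adam17, Jak1 and the neighbours of Osm lost their calls with the replicate block too (adjusted p 0.0809, 0.0759 and 0.0860 for the first 3). With it 7 members, 17 pathway genes and 1967 genes were lower and 582 higher. Ratios to receptors or marker lists were recomputed without each library (and, to receptors, with a lower prior count). All 276 values moved by less than 1 SD. Leaving out 1 of 4 libraries cannot move a group mean by as much as 1 SD. For those values the outcome was fixed in advance and does not show that the ratios are stable. Scaling moved the median of all genes to between -0.01 and 0.04. Counts of 4 to 22 limit Osm and Il6 in DSS+AP. Among the nearest profiles, low counts in DSS+AP also limit Avpr1a (1 to 7), Cxcl3 (3 to 25), Kcnj12 (4 to 10) and Il1f9 (4 to 13.87).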
